A study of Mus musculus with 72 samples.

Results

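The pituitary at baseline was described here from 6 of the 72 RNA-seq libraries of the study, the pituitaries of the FED-CTRL males, set against epididymal white adipose tissue (eWAT) and liver of the same 6 animals. The members were chosen by tissue and group label and not by any measured value, and the 3 tissues of a mouse were matched by its animal number (14, 15, 16, 24, 41 and 42), so that each comparison rested on 6 pituitary, 6 eWAT and 6 liver libraries. The study asked how underfeeding of the pregnant dam alters the response of adult sons to a fatty diet. All mice were male offspring on an FVB.129P2 background, and 4 groups of 6 gave the 3 tissues each. FED dams ate freely and CR20 dams had their intake cut by 20% from late pregnancy until their pups were weaned. From 8 weeks of age the sons ate either a control diet with 10% fat (CTRL) or a high fat diet with 45% fat (HFD). The FED-CTRL sons therefore had neither the maternal restriction nor the fatty diet. For the sequenced males the diet lasted 10 weeks, while the labels name a longer course as well. A mouse was a replicate, and each library was made from homogenised tissue holding all of its cell types. In such bulk RNA, fewer cells of a type and less RNA per cell cannot be told apart.

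The pituitary is the gland below the hypothalamus that sends out the hormones of growth, lactation, stress, thyroid and reproduction. Its anterior lobe holds somatotrophs, lactotrophs, corticotrophs, thyrotrophs and gonadotrophs, each named for the hormone it makes, together with non-hormonal stem and folliculostellate cells. The intermediate lobe holds melanotrophs, and the posterior lobe holds glia and the axon ends of hypothalamic neurons. Hormone cells take their identity from lineage transcription factors, store prohormones in dense-core granules, and release them under hypothalamic receptors and through calcium-triggered exocytosis.

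Total counts ran from 19873969 to 23666117 in pituitary, from 18896702 to 22364963 in eWAT and from 12889761 to 19144967 in liver, so a gene absent from liver was less tightly bounded than one absent from eWAT. Levels are CPM, the share of a library's counts on the usual CPM scale, after TMM scaling, whose factors were 1.02 to 1.22 in pituitary, 1.18 to 1.26 in eWAT and 0.67 to 0.77 in liver. A count of 3 in a library, taken as the limit that a count of 0 allows, was worth on average 0.120 CPM in pituitary, 0.118 CPM in eWAT and 0.254 CPM in liver. RNA of liver was extracted by another method than RNA of pituitary and eWAT, so tissue and extraction cannot be told apart in any pituitary to liver difference. Mitochondrially encoded genes held 1.44 to 2.51% of pituitary counts, 3.13 to 4.07% of eWAT counts and 3.87 to 6.66% of liver counts.

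The defining markers of the labelled tissue, Gh, Prl and Pomc, were present in all 6 pituitaries, and growth hormone dominated the libraries. Gh alone held 25.4% ± 3.61 (SD, n = 6) of pituitary counts, from 20.7% in mouse 15 to 30.9% in mouse 24, which was 4514398 to 7211745 counts per library. The other tissues held 12 to 335 Gh counts in eWAT and 44 to 190 in liver. The 6 hormone genes that could be tested held 29.3% ± 3.51 (SD, n = 6), and the 10 most counted genes of the gland 33.4%. As few as 115 to 308 genes held 50% of pituitary counts, against 434 to 500 in eWAT and 140 to 190 in liver. A single gene thus took a larger mean share of the pituitary libraries than the 10 leading genes of eWAT took together there (16.9%).

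Of 55416 genes counted, 17255 had enough counts to be tested, and a gene was called when its adjusted p was at most 0.055 and its change at least 2-fold (edgeR quasi-likelihood test with the animal as block, Benjamini-Hochberg adjustment). Against the mean of eWAT and liver, 5120 genes (29.7%) were higher in pituitary and 4430 (25.7%) were lower. Against both other tissues at the same time, 3575 genes (20.7%) were higher and 2541 (14.7%) were lower, where a gene had to pass against eWAT and against liver separately. At least 32-fold higher than each were 983 genes (5.70%). The split of higher against lower calls moved with the scaling. With library totals in place of TMM, 3788 genes were higher than each and 1947 lower, and with totals that left out the 20 largest genes of each tissue the numbers were 4557 and 1595. The share of higher calls was then 66.1% and 74.1%, against 58.5% with TMM, and the median of all genes moved up by 0.27 and 0.50 on the log2 scale. For the contrast with the mean of the other tissues the corresponding shares were 61.9% and 68.5%, against 53.6% with TMM, from 5982 higher and 3687 lower genes and from 6783 and 3112.

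**Figure D1:**
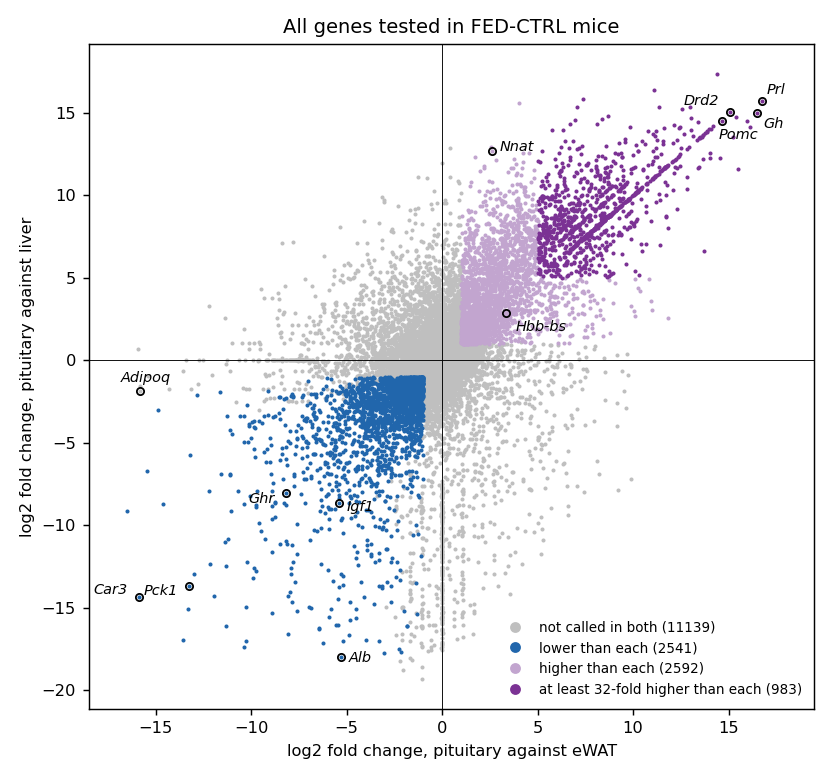
Each point is 1 gene, placed by its log2 fold change of pituitary against eWAT on the horizontal axis and against liver on the vertical axis, in the 18 FED-CTRL libraries. The 3575 genes higher than each lie in the upper right and the 2541 lower than each in the lower left, with Prl, Gh, Pomc and Drd2 at the far upper right, and the diagonal line of points holds genes with no count in either other tissue.

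The 3575 genes higher than each held 52.0% ± 2.78 (SD, n = 6) of pituitary counts, and 26.6% ± 1.16 without Gh. The same genes held 4.90% of eWAT counts and 2.33% of liver counts on average. Most were of modest level, since 392 of them reached 100 CPM in pituitary. The 983 genes at least 32-fold higher held 35.0% ± 3.39 (SD, n = 6) of pituitary counts, 0.0283% of eWAT counts and 0.00688% of liver counts, and 98 of them reached 100 CPM. Conversely, the 2541 genes lower than each held 3.38% ± 0.282 (SD, n = 6) of pituitary counts, 31.5% of eWAT counts and 40.6% of liver counts. The plot of log2 fold changes against both tissues shows these sets as separate arms. Of the 983 genes, 560 had no count in any library of at least 1 of the other tissues and 215 had none in either, so that their fitted fold changes depended on the prior count. With those absences set at 3 counts per library, a limit added after seeing the data, 617 genes remained at least 32-fold higher.

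Every hormone gene that could be tested was higher in pituitary than in each other tissue, against 20.7% of all genes. All 6 were at least 32-fold higher, against 5.70%, with a median log2 fold change of 15.14 against 0.02 over all genes. This and the other gene lists were chosen with earlier results of these data known, so counts of their members are descriptions. Gh, which encodes growth hormone of somatotrophs, had 230164, 171068, 214522, 303569, 255011 and 190316 CPM in mice 14, 15, 16, 24, 41 and 42. Its lowest, median and highest levels were 0.537, 1.39 and 12.2 CPM in eWAT and 3.31, 6.49 and 14.0 CPM in liver. The lowest pituitary thus lay far above the highest library of either other tissue, with no overlap.

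The mean pituitary level of Gh was 68069.5-fold that of eWAT and 30312-fold that of liver, with a log2 fold change against their mean of 15.75 (SE 0.57, adjusted p = 2.40e-15). In eWAT the highest level of Gh (12.2 CPM), of Prl (0.218 CPM) and of Pomc (1.67 CPM) was in mouse 15, and the source of these few counts was not tested. In the pituitary, mouse 15 had the lowest Gh and the highest Prl of the 6.

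Prl, which encodes prolactin of lactotrophs, had 9338, 10307, 6979, 9007, 9619.5 and 6579.7 CPM in the same order of mice, at most 0.218 CPM in eWAT and at most 0.203 CPM in liver. That was 154832 to 272005 counts per pituitary library against 0 to 6 in eWAT and 1 or 2 in liver. Its log2 fold change of 16.25 (SE 0.21, adjusted p = 7.42e-21) was the largest of all 17255 genes tested. Per kilobase of exon, the mean level of Prl in these males was 6135 CPM per kb against 263242 CPM per kb for Gh.

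Pomc, whose product is cut into ACTH in corticotrophs and into melanocyte-stimulating hormone and beta-endorphin in melanotrophs, had 21963, 22819, 25832, 24966, 20376 and 18388 CPM. It reached at most 1.67 CPM in eWAT and 1.84 CPM in liver, and its log2 fold change was 14.58 (SE 0.28, adjusted p = 3.05e-19). The 3 leading hormone genes varied by less than 2-fold between mice, and none overlapped with another tissue.

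The glycoprotein hormones are built of a shared and a specific subunit. Cga, the alpha subunit that thyrotropin and the gonadotropins share, had lowest, median and highest levels of 1659, 2058 and 2471 CPM in pituitary and at most 0.109 CPM in eWAT and 0.221 CPM in liver, a log2 fold change of 15.23 (SE 0.25, adjusted p = 3.66e-20). Fshb, the beta subunit of follicle-stimulating hormone, had 443, 518 and 669 CPM, with 1 count in all of eWAT and 1 in all of liver. Its ratio to eWAT was 80694 (95% interval 14483 to 3187297), an interval that covers counting error only. Tshb, the beta subunit of thyroid-stimulating hormone, had 116, 174 and 191 CPM in pituitary, and its log2 fold change was 10.90 (SE 0.23, adjusted p = 1.17e-18). For each of these genes the pituitary range lay above the ranges of both other tissues.

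Lhb, the beta subunit of luteinizing hormone, was not tested. It is listed as 2 overlapping genes on chromosome 7, and the one with counts had 6, 4, 4, 13, 9 and 13 in the 6 pituitaries and 0 in every eWAT and liver library. Reads in overlapping genes can be dropped by the counting, so these few counts are uncertain and bear on no comparison with Fshb.

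**Figure D2:**
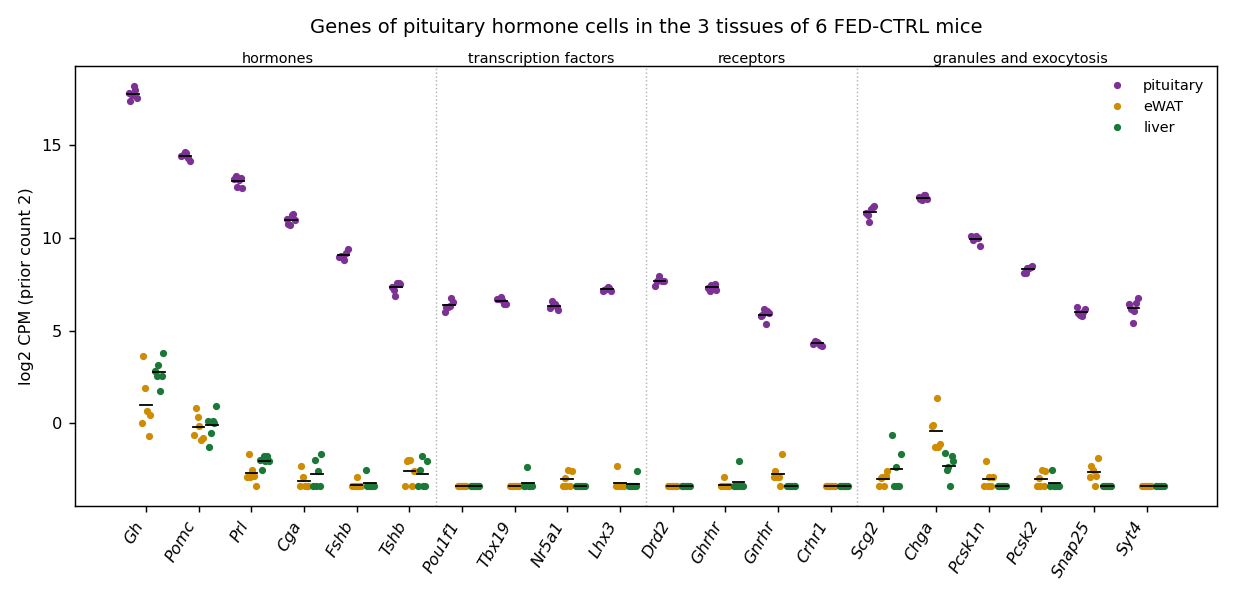
Log2 CPM (vertical axis, prior count 2) of 6 hormone genes and of transcription factor, receptor, granule and exocytosis genes (horizontal axis) in the FED-CTRL mice, with 1 point per library, 6 per tissue, and a black bar at each mean. For every gene shown all 6 pituitary points lie above all eWAT and liver points, which mostly sit at the level of a count of 0.

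The promoters of Gh, Prl and of Pou1f1, the factor that somatotrophs, lactotrophs and thyrotrophs need, are shown because the letters of a POU1F1 element (TATNCAT, searched on both strands) occur in all 3. They were read from the mouse genome GRCm39 from 250 bases before to 30 bases after the annotated start of the canonical transcript, 5′ to 3′ on the gene's strand, with each match in capitals. Gh is on chromosome 11, minus strand, chr11:106192662-106192941. Prl is on chromosome 13, plus strand, chr13:27241303-27241582. Pou1f1 is on chromosome 16, plus strand, chr16:65317147-65317426.
Gh: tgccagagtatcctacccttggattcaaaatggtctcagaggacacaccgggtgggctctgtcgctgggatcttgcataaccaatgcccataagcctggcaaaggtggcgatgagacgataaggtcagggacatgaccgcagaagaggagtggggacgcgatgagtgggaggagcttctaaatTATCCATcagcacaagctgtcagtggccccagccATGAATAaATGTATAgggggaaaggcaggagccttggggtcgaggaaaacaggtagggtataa
Prl: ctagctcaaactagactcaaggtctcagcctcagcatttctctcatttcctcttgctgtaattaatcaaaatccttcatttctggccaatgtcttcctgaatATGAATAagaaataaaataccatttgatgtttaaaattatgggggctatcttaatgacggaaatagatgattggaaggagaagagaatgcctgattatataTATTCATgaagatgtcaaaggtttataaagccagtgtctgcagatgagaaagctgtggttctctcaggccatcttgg
Pou1f1: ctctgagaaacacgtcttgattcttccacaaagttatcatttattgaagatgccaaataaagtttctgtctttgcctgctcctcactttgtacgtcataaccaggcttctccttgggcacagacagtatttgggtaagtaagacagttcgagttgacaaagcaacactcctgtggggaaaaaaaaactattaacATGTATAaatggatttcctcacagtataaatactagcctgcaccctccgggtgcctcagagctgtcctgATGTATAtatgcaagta

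Counted from the annotated start, the matches began at -67, -33 and -25 in Gh, at -148 and -47 in Prl, and at -56 and 14 in Pou1f1. Over the window of 250 bases before to 50 after the start, 2 of the 6 tested hormone genes (Gh and Prl) and 5 of the 20 tested lineage factors held these letters. The share was 5.12% of all 15035 tested protein-coding genes, 5.74% of those higher than each and 6.91% of those at least 32-fold higher. A match is a stretch of letters and not a measured binding site.

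Nearly all lineage transcription factors were higher in the gland. Of 21 members 20 were tested and 19 were higher than each of eWAT and liver, against 20.7% of all genes. None was lower. As fitted, 15 were at least 32-fold higher, against 5.70% of all genes, and 12 with absences at 3 counts. The median log2 fold change of the tested factors was 11.80, or 7.78 with absences at 3 counts, against 0.02 and 0.01 over all genes. Of the 20, 10 had no count in any eWAT or liver library. The summed level of the list was 1070 to 1234 CPM in pituitary, 15.7 to 24.0 CPM in eWAT and 0.703 to 1.35 CPM in liver.

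Pou1f1 had lowest, median and highest levels of 64.4, 80.2 and 107 CPM and no count in eWAT or liver, which set it at least 708-fold and 329-fold higher (adjusted p = 2.64e-10 for both, edgeR). Six6, a factor of hypothalamic and pituitary growth, had 78.3, 88.4 and 99.1 CPM and was at least 749-fold and 349-fold higher. Both genes were present in all 6 pituitaries and in none of the 12 other libraries.

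Pitx1, which acts on many hormone promoters, ran from 171 to 229 CPM, against 1 count in all of eWAT and 2 in all of liver. Lhx3, a LIM factor that the hormone lineages need, ran from 142 to 161 CPM, against 3 and 1 counts. Tbx19, the factor of Pomc cells, ran from 85.4 to 112 CPM, against 0 counts and 1. The ranges over the 6 mice were narrow, and none came near another tissue.

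Nr5a1, the steroidogenic factor of gonadotrophs, had 68.1, 82.0 and 96.8 CPM, which was 2579-fold the eWAT level and at least 322-fold the liver level. Gata2, of gonadotrophs and thyrotrophs, had 66.4, 82.4 and 94.6 CPM, 20.8-fold the eWAT level and 89.7-fold the liver level. Pax7, the factor of melanotrophs, ran from 22.8 to 27.6 CPM and Neurod4 from 14.6 to 24.1 CPM, both with no count elsewhere. Insm1, a zinc-finger factor of endocrine cells, ran from 40.8 to 56.9 CPM, also with no count elsewhere.

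A factor of the early gland was nearer to the limit of detection. Hesx1, which acts in the gland's rudiment, ran from 0.0416 to 0.417 CPM, its median being near the 3-count limit. It was the 1 tested factor that was not called. Its log2 fold change from the mean of eWAT and liver was 1.57, but its changes against eWAT and against liver had opposite signs. Isl1, a LIM factor of hormone cells, was shared with fat, at 5.44-fold the eWAT level. Sox3, with at most 7 counts in a pituitary library, was not tested.

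All 14 receptors for hypothalamic signals were tested, and all 14 were higher in pituitary than in each other tissue, against 20.7% of all genes. As fitted, 12 of the 14 were at least 32-fold higher, against 5.70% of all genes, and 8 with absences at 3 counts. The median log2 fold change of the 14 receptors was 9.83, or 6.83 with absences at 3 counts. Drd2, the dopamine receptor through which prolactin release is held down, had 169, 205 and 244 CPM and no count in eWAT or liver. It was at least 1744-fold and 812-fold higher (adjusted p = 8.04e-11 for both, edgeR).

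Ghrhr, the receptor for growth hormone-releasing hormone, had 139.6, 161 and 184 CPM, against 1 count in all of eWAT and 2 in all of liver. Gnrhr, the gonadotropin-releasing hormone receptor, had 40.6, 59.3 and 72.7 CPM, 856-fold the eWAT level and at least 231-fold the liver level. Crhr1, the corticotropin-releasing hormone receptor, ran from 18.1 to 22.0 CPM, Avpr1b, the vasopressin receptor of corticotrophs, from 16.3 to 18.5 CPM, and Sstr5, a somatostatin receptor, from 17.3 to 22.2 CPM. Each was at 0 or 1 count in all of eWAT and in all of liver.

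Other receptors were near the lower end of what these depths could measure. Ghsr, the ghrelin receptor, ran from 1.14 to 2.83 CPM, Trhr, the receptor for thyrotropin-releasing hormone, from 0.884 to 1.54 CPM, and Gpr101, an orphan receptor of somatotrophs, from 0.522 to 1.10 CPM. None of the 3 had a count elsewhere, so they were at least 6.50-fold, 4.62-fold and 2.92-fold above liver. Adcyap1r1, the PACAP receptor, was shared with the other tissues, 4.01-fold above eWAT and 47.4-fold above liver. Sstr2 was 3.75-fold above liver.

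Receptors through which peripheral hormones feed back on the gland were split. Of 10, all tested, 5 were higher than each other tissue, 2 were lower than each and 3 passed neither test, with a median log2 fold change of 1.02. Over all genes 20.7% were higher than each and 14.7% lower. Pgr, the progesterone receptor, ran from 3.24 to 5.23 CPM against 1 count in all of eWAT and 2 in all of liver, and was the 1 member at least 32-fold higher. Esr1, the estrogen receptor, ran from 83.7 to 114 CPM, 2.41-fold the eWAT level and 2.28-fold the liver level. Thra, a thyroid hormone receptor, was 3.09-fold and 14.6-fold higher, and Igf1r, the receptor for IGF-1, 4.07-fold and 27.6-fold.

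Nr3c2, the mineralocorticoid receptor, was 4.70-fold the eWAT and 2.55-fold the liver level, whereas Nr3c1, the glucocorticoid receptor, was 2.91-fold and 2.14-fold lower in pituitary. The call of Nr3c1 against liver was lost with library totals (log2 fold change -0.47), with totals that left out the 20 largest genes (-0.28) and without mouse 16 (-0.99). Insr, the insulin receptor, was 2.48-fold and 3.35-fold lower, and against liver -0.91 on the log2 scale with totals that left out the 20 largest genes. Lepr, the leptin receptor, had 0.716, 1.06 and 1.37 CPM and lay 1.93-fold and 1.97-fold below, under the 2-fold limit. Thrb, the other thyroid hormone receptor, was 1.57-fold the eWAT level and 1.59-fold below the liver level, and its difference from their mean was -0.01 on the log2 scale (adjusted p = 0.952, edgeR).

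Genes of prohormone processing and dense-core granules were higher almost throughout. All 15 were tested, and 14 were higher than each other tissue, against 20.7% of all genes. At least 32-fold higher as fitted were 13, against 5.70% of all genes, and 12 with absences at 3 counts. The median log2 fold change of the 15 was 11.73, or 11.22 with absences at 3 counts. Their summed level was 12155 to 15911 CPM in pituitary, 174.05 to 233 CPM in eWAT and 46.3 to 57.5 CPM in liver. Granins are the acidic proteins that pack the granule.

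Chga, chromogranin A, had 4169, 4586 and 5162 CPM and a log2 fold change of 13.87 (SE 0.29, adjusted p = 8.84e-19). Chgb, chromogranin B, had 1219, 1639 and 2163 CPM and a log2 fold change of 13.93 (SE 0.19, adjusted p = 7.42e-21). Scg2, secretogranin II, had 1854, 2826 and 3424 CPM and a log2 fold change of 15.12 (SE 0.26, adjusted p = 7.39e-20). The highest eWAT or liver value of any of the 3 was 2.49 CPM, for Chga in eWAT.

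The prohormone convertases were also nearly absent elsewhere. Pcsk1, which cuts Pomc to ACTH, ran from 183 to 293 CPM, against 2 counts in all of eWAT and 1 in all of liver. Pcsk2, which cuts further in melanotrophs, ran from 273 to 359.6 CPM and was 10105-fold the eWAT level. Pcsk1n, which encodes an inhibitor of the Pcsk1 enzyme, ran from 751 to 1118 CPM, 26808-fold the eWAT level and at least 3911-fold the liver level.

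Enzymes that finish the peptides were more widely shared. Cpe, which trims basic residues, was 47.6-fold the eWAT level and 919.8-fold the liver level, and Pam, which amidates peptides, 4.51-fold and 31.0-fold. The granule membrane proteins Ptprn and Ptprn2 were 4693-fold and 3516-fold above eWAT. The 1 member not called was Cadps2, a priming protein, 1.90-fold the liver level. The letters TGACGTCA of a CREB element were in the promoter window of 3 of the 15 (Pcsk1, Scg2 and Vgf), against 2.95% of all tested protein-coding genes.

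The machinery of exocytosis, which most secreting cells share, stood less far apart. All 14 members were tested, and 11 were higher than each other tissue, against 20.7% of all genes. Of the 14, 6 were at least 32-fold higher, against 5.70%, and the median log2 fold change was 5.38. Rab3b, a vesicle GTPase, had 274, 283 and 337 CPM, 2896-fold the eWAT level and 3689.7-fold the liver level. Snap25, a SNARE of the plasma membrane, had 54.3, 62.7 and 77.2 CPM, 844-fold the eWAT level and at least 252-fold the liver level. Syt4, a vesicle synaptotagmin, had 41.9, 79.5 and 107 CPM and no count elsewhere, at least 653-fold and 304-fold higher.

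The vesicle SNARE Vamp2 was 4.14-fold and 8.11-fold higher. Syt1, the calcium sensor, was 4708-fold above eWAT and 5.87-fold above liver. Rab27b and Unc13b missed the limit against eWAT, at 1.98-fold and 1.23-fold.

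Voltage-gated channels, which let pituitary cells fire action potentials, gave 8 of 12 tested members (of 14) higher than each other tissue, 3 of them at least 32-fold, and none lower. Their median log2 fold change was 4.14, and over all genes 20.7% were higher than each and 5.70% at least 32-fold. Cacna1d, an L-type calcium channel, was 19.8-fold and 8.21-fold higher, and the sodium channel Scn3a 202-fold and 62.2-fold. Scn8a, another sodium channel, was 193-fold and 40.8-fold higher. The T-type channel Cacna1g was 1.53-fold below eWAT and 55.6-fold above liver.

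Markers of the other lobes were present as well as those of the anterior lobe. Of 9 markers of the intermediate and posterior lobes 9 were tested, and 8 were higher than each other tissue, against 20.7% of all genes. All 8 were at least 32-fold higher as fitted, against 5.70% of all genes, and 5 with absences at 3 counts. The median log2 fold change of the 9 was 9.57, or 6.61 with absences at 3 counts. Pax7 and Pcsk2, given above, mark melanotrophs, as does Oacyl, which ran from 51.9 to 81.7 CPM and was 753-fold the eWAT level. Transcripts of the posterior-lobe hormones, made by neurons whose cell bodies lie in the hypothalamus, were few. Avp, vasopressin, ran from 4.95 to 10.4 CPM, and Oxt, oxytocin, from 3.52 to 5.07 CPM. Rax, a factor of posterior-lobe glia, ran from 1.57 to 5.59 CPM and Nkx2-1 from 1.46 to 2.99 CPM. How far hypothalamic tissue gave the counts of Avp, Oxt, Rax and Nkx2-1 was not tested.

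Of 9 markers of stem and folliculostellate cells, 4 were higher than each, against 20.7% of all genes, and 1 was lower than each, against 14.7%. At least 32-fold higher was 1, against 5.70%, and the median log2 fold change was 1.79. Sox2, a stem cell factor, had 13.4, 16.5 and 19.1 CPM and no count elsewhere, at least 139-fold and 64.7-fold higher. Aldh1a2, a retinoic acid enzyme, was 9.70-fold and 392-fold higher, and Sox9 2.53-fold and 4.58-fold. S100b, the usual folliculostellate marker, was 8.30-fold below eWAT at 0.361, 0.569 and 1.41 CPM. Aldh1a1 was lower than each, by 7.04-fold and 156-fold.

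Ranked by the difference of mean log2 CPM from the nearer of the other tissues, the 15 leading genes were headed by Prl, Gh and Pomc, and held Cga, Fshb and 6 granule genes, Scg2, Pcsk1n, Chgb, Chga, Pcsk2 and Ptprn. The remaining 4 were in no hormone or granule list. Dlk1, an imprinted transmembrane protein known from adipocyte precursors, had 2419, 2159, 2679, 3238, 2640.2 and 2086 CPM against at most 0.562 CPM in eWAT and 0.147 CPM in liver. Elapor1, an endosome-lysosome protein, had 1229, 1504 and 1714 CPM and a log2 fold change of 13.56 (SE 0.20, adjusted p = 1.52e-20). Tmem130 and Tmem59l, membrane proteins, had medians of 773 and 319 CPM. Tmem59l had 2 counts in all of eWAT and 1 in all of liver.

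Dlk1 was 1 of a larger group. Of 16 imprinted genes, expressed from 1 parental copy, 14 were tested. In pituitary 11 were higher than in each other tissue, against 20.7% of all genes, and 2 at least 32-fold, against 5.70%. None was lower, and the median log2 fold change of these genes was 4.54. Their summed level was 10049 to 14110.2 CPM in pituitary, 1413 to 1929 CPM in eWAT and 23.9 to 55.2 CPM in liver. Nnat, neuronatin, had 6257, 7924 and 9432 CPM and was 6.06-fold the eWAT level and 6809-fold the liver level. Nnat lies within another gene, so its reads can be shared. Meg3, a non-coding RNA of the Dlk1 region, had 628, 818, 1372, 309, 309.8 and 389 CPM, highest in mouse 16, and was 21.6-fold and 453-fold higher. Grb10, an inhibitor of insulin and IGF receptors, was 1.54-fold below eWAT and 12.0-fold above liver.

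Divided by exon length, so that genes can be compared with each other, Gh stood at 263242 CPM per kb on average. Pomc followed at 16899, Prl at 6135 and Nnat at 3772 CPM per kb. The mitochondrial mt-Co1, at 3707, and the brain non-coding RNA Bc1, at 3532 CPM per kb, came after them, and Eef1a1, the translation elongation factor, stood at 1852 CPM per kb and Cga at 1640.3. Bc1 was 15.8-fold the eWAT and 791-fold the liver level. Among these, mt-Co1 lay 1.96-fold below eWAT, under the 2-fold limit, and 5.58-fold below liver.

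The genes through which target tissues answer pituitary hormones were mixed. In the list of hormone receptors and growth hormone axis genes, 8 of 12 were tested. Of these, 3 were lower than each other tissue and none was higher than each, against 14.7% and 20.7% of all genes. Against the mean of both, 4 were lower and 2 higher, where all genes gave 25.7% and 29.7%. The median log2 fold change of the 8 was -3.92, or -3.57 with absences at 3 counts. Ghr, the growth hormone receptor, had 2.70, 3.23 and 4.91 CPM in pituitary, 868, 966 and 1128 CPM in eWAT and 793, 899.6 and 1047 CPM in liver. It was 284-fold and 266-fold lower in the gland, with no overlap. Igf1, its main target gene, had 1.60, 2.62 and 3.46 CPM and was 42.9-fold and 391-fold lower.

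Igfals, which carries IGF-1 in blood, had a median of 0.0189 CPM and was 2413-fold below liver. Igfbp3 was 8.78-fold above eWAT and 1.68-fold above liver, and Socs2, a feedback inhibitor of growth hormone signalling, 3.75-fold and 1.07-fold, so neither passed against both. Tshr, the thyrotropin receptor, was 220.3-fold below eWAT and at least 3.30-fold above liver, where it had no count. Mc2r, the ACTH receptor, had no count in pituitary or liver and was at least 295-fold lower than in eWAT.

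Of 22 genes of lipid and glucose metabolism of fat and liver, all tested, 18 were lower in pituitary than in each other tissue, against 14.7% of all genes. None was higher than each, against 20.7%, and the median log2 fold change of the 22 was -3.89. Scd1, the fatty acid desaturase, had 24.6, 35.1 and 44.7 CPM and was 1582-fold and 245-fold lower. Fasn, fatty acid synthase, had 303, 343 and 469 CPM, 24.1-fold and 6.79-fold lower, and Acly, which feeds it, was 3.42-fold and 3.06-fold lower. Against liver the call of Acly was lost with library totals (log2 fold change -0.95) and with totals that left out the 20 largest genes (-0.77). Pck1, of gluconeogenesis and glyceroneogenesis, was 9220.2-fold and 13626-fold lower at 0.0348, 0.185 and 0.463 CPM. The factors Cebpa and Pparg were 116-fold and 235-fold below eWAT. Pnpla2, the triglyceride lipase, was 17.1-fold below eWAT but 1.11-fold the liver level.

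By the same ranking, the 10 genes furthest below the nearer tissue were Car3, Pck1, Hp, Orm1, Ces1f, Gys2, Cyp2e1, Sucnr1, Amy1 and Aldh1a7. Car3, a carbonic anhydrase of fat and liver, had 0.174, 0.241 and 0.766 CPM and was 57312-fold and 20639-fold lower. Hp, haptoglobin, was 3866-fold and 19756-fold lower, and Gys2, the liver glycogen synthase, 1287-fold and 5230.2-fold. Ces1f, a carboxylesterase, and Sucnr1, the succinate receptor, had no count in any pituitary library. They were at least 6289.6-fold and 403-fold below liver. Orm1 and Amy1 have near-identical copies, so their values are uncertain.

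**Figure D3:**
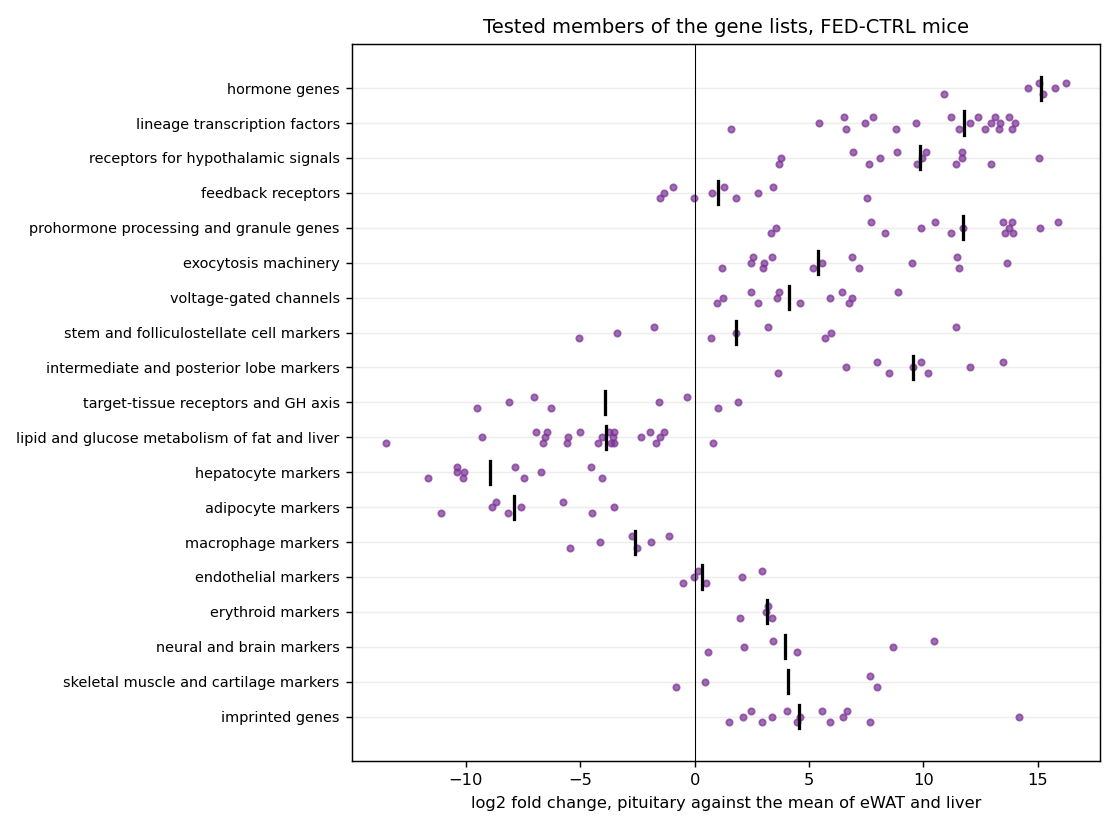
Log2 fold change of pituitary against the mean of eWAT and liver (horizontal axis) for every tested member of the gene lists (1 point per gene, 1 row per list), fitted also for genes with no count in a tissue. Hormone, lineage factor, hypothalamic receptor and granule genes lie at the right. Metabolic genes of fat and liver and hepatocyte and adipocyte markers lie at the left. Feedback receptors lie on both sides of 0, from -1.53 to 7.52 with a median of 1.02. Black bars are at the medians.

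Markers of other cell types were measured in the same libraries. Hepatocyte markers summed to 2.47 to 8.25 CPM in pituitary, 12.0 to 23.3 CPM in eWAT and 130520.2 to 177468 CPM in liver. Of 10, 9 were lower than the mean of the other tissues and 4 lower than each, against 25.7% and 14.7% of all genes. Alb, albumin, was 261099-fold below liver. Adipocyte markers summed to 20.7 to 23.3 CPM in pituitary, 23364 to 28111 CPM in eWAT and 21.6 to 45.3 CPM in liver, where the range overlapped that of pituitary. All 8 were lower than the mean, which the eWAT level alone can bring about, and 1 of 8 was lower than each. Adipoq, adiponectin, reached 0.225 CPM. Adipoq, Lep, Plin1, Cidec, Retn and Cfd were each at most 0.348 CPM in the gland, and most of the sum came from Lipe (15.7 to 18.9 CPM) and Fabp4 (median 4.32 CPM). Macrophage markers were 4 of 6 lower than each, against 14.7% of all genes. They summed to 62.1 to 73.5 CPM against 365 to 476 CPM in eWAT, and Cd68 was 13.1-fold below eWAT.

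Endothelial markers overlapped with eWAT, at 395 to 488 CPM against 257 to 568 CPM in eWAT and 68.5 to 145 CPM in liver. Against 20.7% of all genes, 1 of 6 was higher than each. That was Plvap, of fenestrated capillaries, with 244, 288 and 309 CPM, 7.27-fold and 7.36-fold higher. Of 4 erythroid genes tested, all 4 were higher than the mean of the other tissues, against 29.7% of all genes. Higher than each were 3, against 20.7%. The 4 genes summed to 1379 to 4824 CPM in pituitary, against 102 to 329 CPM in eWAT and 202 to 356 CPM in liver. Hbb-bs, a beta globin, had 709, 1196, 2400.4, 876, 779 and 852 CPM in the order of mice given above, highest in mouse 16. The part that blood in the gland had in other results was not tested.

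Of 8 neural markers 6 were tested and 4 were higher than each, against 20.7% of all genes. The tested markers summed to 118.8 to 143 CPM against 53.7 to 63.9 CPM in eWAT. Tubb3, a neuronal tubulin, had 64.1, 68.2 and 82.1 CPM, Slc17a6, a glutamate transporter, 5.99, 8.37 and 10.8 CPM, and Gfap, of astrocytes and posterior-lobe glia, 2.12, 3.39 and 4.36 CPM. Mbp, of myelin, was 1.49-fold below eWAT. Muscle and cartilage markers summed to 7.41 to 11.1 CPM in pituitary, 10.1 to 21.3 CPM in eWAT and 0.781 to 1.54 CPM in liver. Of 6, 4 were tested and 2 were higher than each, against 20.7% of all genes. Those 2 were Myh4, at 3.16 to 5.18 CPM, and Col2a1, at 2.04 to 3.60 CPM. The lowest log2 fold change in that list was -0.83, and none was called lower. None of 5 testis and epididymis markers had enough counts to be tested. How far brain, muscle or bone tissue next to the gland gave these counts was not tested.

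The genes that varied most between the 6 pituitaries were in none of the lists. The 10 with the largest SD of log2 CPM, at a mean of at least 10 CPM, were Egr1, Nr4a2, Nr4a3, Nr4a1, Tgtp1, Noct, Iigp1, Fosl2, Gbp4 and Hspa1b. Among genes higher than each tissue the median SD was 0.23, the same as over all genes tested, while Egr1, an immediate-early transcription factor, had an SD of 1.53. Egr1 had 25.8, 276, 76.9, 235, 65.0 and 22.2 CPM in mice 14, 15, 16, 24, 41 and 42.

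The Nr4a orphan receptors, immediate-early factors that act on Pomc, did not follow Egr1. Nr4a1 had 20.5, 39.9, 16.9, 43.4, 132 and 28.5 CPM, highest in mouse 41 and lowest in mouse 16. Nr4a2 had 4.36, 4.36, 6.85, 11.2, 44.3 and 22.6 CPM and Nr4a3 4.04, 5.00, 4.87, 11.9, 34.2 and 27.6 CPM. Fosl2, an AP-1 factor, had 45.4, 44.7, 44.4, 82.9, 199.8 and 150.3 CPM, and Noct, a clock-controlled gene, 11.3, 8.30, 7.44, 24.8, 37.3 and 28.5 CPM. Nr4a2, Nr4a3, Fosl2 and Noct were higher in mice 24, 41 and 42 than in mice 14, 15 and 16, whereas Egr1 was highest in mice 15 and 24. In eWAT Fosl2 varied with an SD of 0.24 and in liver of 0.22, against 0.96 in pituitary. Noct had 0.35 in eWAT and 0.33 in liver, against 0.99. The others also varied in liver, with an SD of 1.22 for Egr1, 1.27 for Nr4a2, 0.83 for Nr4a3 and 0.93 for Nr4a1. In pituitary these were 1.53, 1.34, 1.34 and 1.05, and in eWAT 0.67, 0.52, 0.39 and 0.45.

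The interferon-induced GTPase genes formed another pattern. Iigp1 had 5.62, 34.1, 13.2, 27.7, 31.6 and 17.0 CPM and Gbp4 4.24, 23.9, 7.17, 13.7, 15.8 and 7.69 CPM, both lowest in mouse 14 and highest in mouse 15. Tgtp1, which has a near-identical copy, had 5.85, 36.7, 18.6, 33.0, 34.4 and 17.2 CPM. Mouse 14 was also the lowest in eWAT for all 3 genes and in liver for Tgtp1 and Gbp4. Hspa1b, a heat shock protein, was highest in mouse 15. Time of collection and order of dissection were not given in the sources used here.

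**Figure D4:**
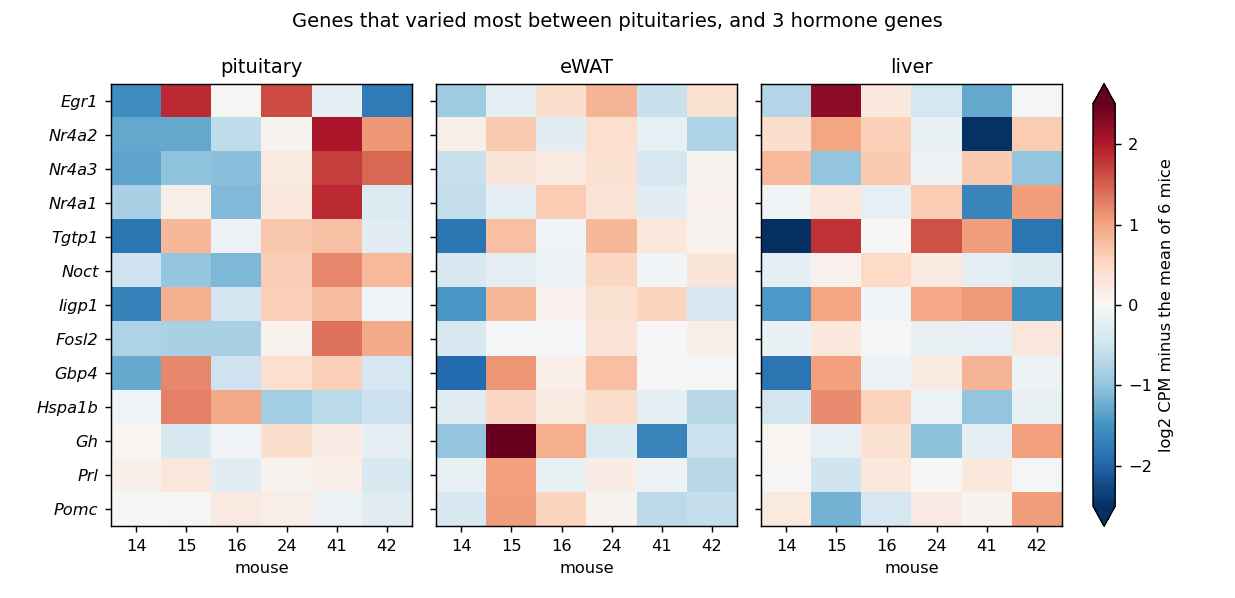
Log2 CPM minus the gene's mean over the 6 mice of a tissue (color scale) for the 10 genes that varied most between pituitaries and for Gh, Prl and Pomc (rows), in each FED-CTRL mouse (columns) and tissue (panels). In pituitary, Nr4a2, Nr4a3, Fosl2 and Noct are above their mean in mice 24, 41 and 42, Nr4a1 is highest in mouse 41, and Tgtp1, Iigp1 and Gbp4 are lowest in mouse 14.

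Biotype, chromosome and promoter sequence were not used to choose the genes higher in pituitary. Long non-coding RNAs were 11.0% of the genes higher than each tissue and 11.0% of those at least 32-fold higher, against 7.96% of all genes tested and 7.20% of those lower than each. The X chromosome held 4.67% and 6.15% of them, against 3.14% of all genes and 2.72% of those lower. Promoters had a median of 13 CpG dinucleotides in 300 bases for genes higher than each and 10 for those at least 32-fold higher, against 16 over all and 12 for those lower. The 6 hormone genes had a median of 2.5 CpG and 42.5% GC, against 57.3% GC over all. These shares and medians are descriptions, and their differences were not tested.

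The letters TTCAGCACC, the core of the element bound by REST, a repressor of neuronal genes, were in 1.29% of the promoters of genes at least 32-fold higher (11 of 854), against 0.339% of all and 0.693% of those higher than each. Lhx3, Six6 and Ptprn2 were among the 11. The PITX1 letters TAATCC were in 6.32% of the strongest genes against 6.90% of all, and the NR5A1 letters CAAGGTCA in 1.05% against 1.33%. Both strands were searched for each motif.

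The 5 genes just inside the 32-fold limit had median pituitary levels from 0.982 CPM, for Tsga10ip, to 26.0 CPM. The 5 just outside it had medians from 1.07 CPM, for Ankrd22, to 33.3 CPM, for Marchf9.

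In an exact paired permutation test of each named gene over the 6 mice (two-sided, 64 sign changes), 219 of 233 genes had the smallest p that 6 pairs can give, 0.0312. Many of the 233 were named for their difference in these same libraries, so this count is a description and no support for it.

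The baseline identity was then looked for in the other 3 mouse groups, each fitted on its own 18 libraries. Genes higher than each tissue numbered 3452 in FED-HFD (20.1% of 17136 tested), 3254 in CR20-CTRL (18.9% of 17227) and 3480 in CR20-HFD (20.4% of 17094). Of the 3575 genes of FED-CTRL, 3162, 3035 and 3212 were called again in these groups and 2774 (77.6%) in all 3. Of the 983 genes at least 32-fold higher, 657 (66.8%) were called so in all 3, where the groups as such gave 888 (5.18%), 791 (4.59%) and 899 (5.26%). Of the 2541 genes lower than each, 1639 (64.5%) were lower in all 3. None of these genes was called in the other direction in any group.

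Across the 24 pituitary libraries of the 4 groups, 2 of 16657 genes (0.0120%) differed in a test for any difference among groups (edgeR quasi-likelihood, adjusted p at most 0.055), and 2201 had an unadjusted p under 0.05. A share of 0.05 of the genes would be expected to have such a p if no gene differed. With limma voom and quality weights, the method of the study, 0 genes passed (smallest adjusted p 0.118, and 2849 at an unadjusted p under 0.05), and with no filter on low counts 173 did. Both genes called by edgeR were outside the identity lists. Serpina3g, a serine protease inhibitor, had log2 CPM of 1.34 ± 0.65 in FED-CTRL, 2.96 ± 1.12 in FED-HFD, 0.67 ± 0.33 in CR20-CTRL and 1.90 ± 0.41 in CR20-HFD (SD, n = 6, adjusted p = 0.00187, edgeR). Ly6c1, of capillary endothelium, had 4.19 ± 0.06, 4.68 ± 0.21, 4.17 ± 0.19 and 4.46 ± 0.10 in the same order (SD, n = 6, adjusted p = 0.0475, edgeR).

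No hormone gene passed that test. Gh had log2 CPM of 17.93 ± 0.29 in FED-CTRL, 18.07 ± 0.31 in FED-HFD, 18.06 ± 0.23 in CR20-CTRL and 18.07 ± 0.16 in CR20-HFD (SD, n = 6, adjusted p = 0.856, edgeR). The adjusted p was 0.823 for Prl, 0.451 for Pomc, 0.449 for Cga, 0.534 for Fshb and 0.491 for Tshb. A p above the limit does not show that the groups were alike. These levels were scaled over the 24 pituitary libraries and so differ slightly from those of the tissue comparison.

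**Figure D5:**
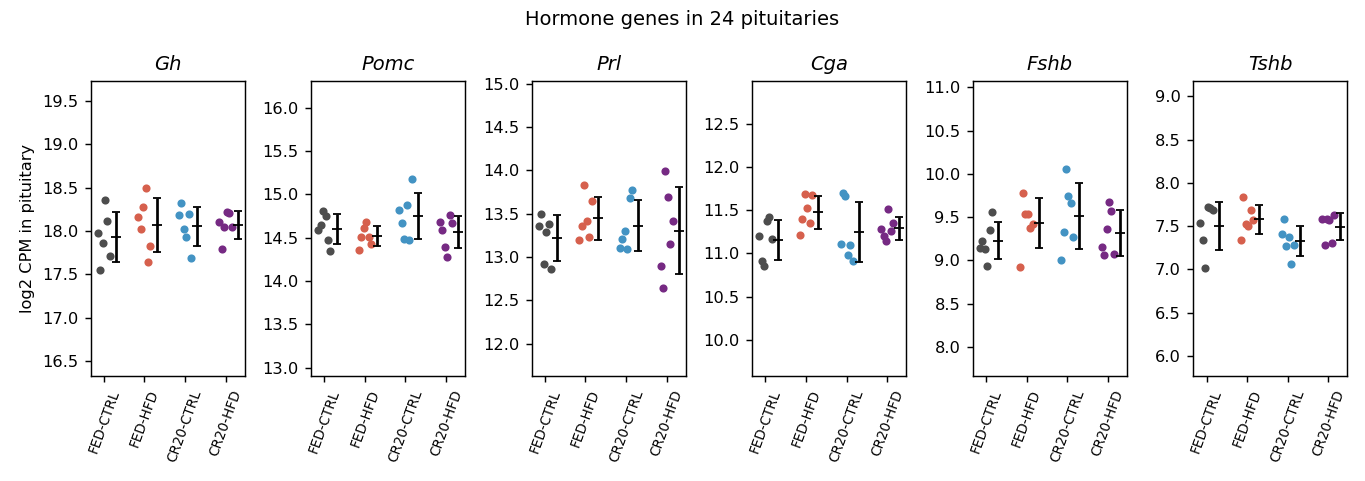
Log2 CPM of 6 hormone genes in the 24 pituitary libraries, 1 point per mouse, with the mean and SD of each of the 4 groups of 6. For each gene the ranges of the 4 groups overlap.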

How the data were processed

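Gene counts of 72 libraries (3 tissues of 24 male mice) were used as deposited. The authors trimmed reads with Trimmomatic, aligned them to GRCm39 with STAR and counted them per gene with featureCounts of Subread, and these counts were not normalized. The strand setting was not given in the sources used here, and the methods name both a total RNA and an mRNA library kit. RNA of liver was extracted by another method than that of eWAT and pituitary.

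The 18 FED-CTRL libraries were fitted with edgeR 4.0.16 in R 4.3.3 (filterByExpr by tissue, TMM, quasi-likelihood test) with the animal number as block, because pituitary, eWAT and liver labels that share a number name 1 animal. Deviations from the tissue means correlated between pituitary and eWAT of a mouse by 0.0306 to 0.0948 and between pituitary and liver by 0.00927 to 0.124. A pituitary correlated best with the eWAT of its own mouse only for mice 14, 15 and 42. With liver this was so only for mouse 15. A gene higher or lower than each tissue took the larger p and the smaller log2 fold change of both contrasts. Calls needed an adjusted p of at most 0.055 and a log2 fold change of at least 1, and the strongest genes at least 5. The study used voom, which was run as an alternative, with DESeq2 1.42.0, other scalings, no filter, no block and each mouse left out. Single genes were also tested with an exact paired permutation test. A gene at 0 in a tissue was bounded by 3 counts per library, and 95% intervals cover counting error only. Coordinates and promoters are of GENCODE M39 on GRCm39, and no protein sequences were used. The steps were tested on simulated data.

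The members were set by tissue and group label, but they and the gene lists were chosen with earlier results of these data known. Named genes are list members, the 15 and 10 called genes with the largest and most negative difference of mean log2 CPM (prior count 2) from the nearer tissue, the 10 highest per kilobase, the 10 most variable at 10 CPM or more, and the 5 nearest to each side of the 32-fold limit. Some list members are counted but not reported by name here.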

Additional observations from a re-analysis of the deposited data

Results flagged for a closer look

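Among 146 sets of 6 pituitary values (named genes and shares of counts) examined for a library that stood apart from the other 5, 5 were marked by Dixon's criterion, where chance marks about 1 in 20. Sox9, a factor of stem and folliculostellate cells, had its highest level in mouse 15 (log2 CPM 3.38, or 10.3 CPM). Sstr2, a somatostatin receptor, had its lowest level in the same mouse (log2 CPM 0.11, or 0.985 CPM). Cacna1g, a T-type calcium channel, was highest in mouse 16 (log2 CPM 2.86, or 7.17 CPM), and so was the adipocyte gene Adipoq (log2 CPM -1.64, or 0.225 CPM). The liver enzyme gene Cyp2e1 was highest in mouse 24 (log2 CPM -1.52, or 0.253 CPM). The last 2 levels were close to the 3-count limit of the pituitary libraries.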

How the results depend on the processing

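Leaving out each mouse in turn gave 5110 to 5187 genes higher and 4379 to 4451 lower than the mean of the other tissues, 3573 to 3628 higher and 2466 to 2582 lower than each, and 983 to 997 at least 32-fold higher, with a Gh share of 24.4 to 26.4%. Without the replicate block the 5 numbers were 5101, 4432, 3567, 2523 and 977, and 387 of 388 comparisons of named genes kept their direction and side of the threshold. With library totals that left out the 20 largest genes of each tissue, 1595 genes were lower than each. The genes at least 32-fold higher were 1686 at a log2 limit of 3 in place of 5, and 617 with absences at 3 counts. The test among the 4 groups called 173 genes with no filter and 0 with voom, where 2849 had an unadjusted p under 0.05.

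Over all settings, 6193 values of the 388 comparisons of 130 genes were computed. Of these 6122 kept direction and side, 50 gained and 13 lost a call, and 8 changed direction, all of them for Thrb, which was not called against the mean. The lost calls were of 7 genes, among them Nr3c1, Insr, Acly, Cd68, Irs1 and Socs2, and most were lost with library totals, whole or without the 20 largest genes. Without those genes the log2 differences were -0.91 for Cd68 and -0.91 for Insr against liver, and -0.85 for Irs1 and -0.83 for Nr3c1 from the mean. That of Socs2 from the mean was 0.91 without mouse 15 and 0.99 over all 72 libraries with the replicate block. The log2 difference of Thrb from the mean was 0.045 with DESeq2, 0.044 with RLE factors, 0.26 with library totals, 0.49 without the 20 largest genes and 0.012 with no filter. It ran from -0.084 to 0.068 when each mouse was left out, and was above 0 without mouse 16 (0.068) and mouse 41 (0.017). Against liver it was 0.17 without the 20 largest genes. The cause was not tested. Depth limited genes at 0 in eWAT or liver, whose folds are lower bounds.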
